A study of Mus musculus with 5 samples.

Results

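The genes described here are 10 members of the interleukin-1 (IL-1) family and of the inflammasome that processes it: Il1a, Il1b, Il1f9, Il1rn, Il18, Il18bp, Nlrp3, Casp1, Casp4 and Gsdmd. They were taken by symbol, and each symbol stood once among the 32285 genes of the deposited gene table. The study injected Lewis Lung Carcinoma (LLC) cells, a mouse lung tumour line, into the flanks of mice and sequenced single leukocytes of the tumours with a droplet method that counts the 3′ ends of transcripts. In the JAG2KO group (2 libraries) the tumour cells carried a guide RNA against JAG2, and in the Scramble group (3 libraries) a Scramble control. Both groups carried the LLC cells in a flank and were sorted as live CD45+ cells, so the edited cells were not the target of the sort. The labels leave unsaid whether each library is another animal, and p-values therefore measure the spread between these libraries, which may be technical. Mouse strain, sex, age, the number of clones and the Cas enzyme are not given in the sources used here.

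IL-1 alpha, IL-1 beta, IL-36 gamma and IL-18 are alarm cytokines of the IL-1 family. IL-1 beta and IL-18 are made as inactive precursors that caspase-1 cleaves once a sensor such as NLRP3 has assembled an inflammasome, and gasdermin D, cut by the same caspase or by caspase-11, opens the pores through which they leave the cell. The IL-1 receptor antagonist and the IL-18 binding protein hold these signals in check. Transcript levels say nothing about cleavage or release. Neutrophils and monocyte-derived cells are known as main sources of IL-1 beta in tumours.

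The members lie on 5 mouse chromosomes, and all are protein-coding genes in the GRCm38 annotation (GENCODE vM21). Il1a lies at chr2:129299610-129309972 and Il1b at chr2:129364570-129371139, both on the minus strand, while Il1f9 (chr2:24186476-24193568) and Il1rn (chr2:24336853-24351494) form a second pair on the plus strand. Casp1 (chr9:5298517-5307265) and Casp4 (chr9:5308828-5336783), which encodes mouse caspase-11, are plus-strand neighbours, and Il18 lies on the same chromosome and strand at chr9:50554827-50581840. Il18bp was annotated at chr7:102014885-102018690 on the minus strand, Nlrp3 at chr11:59541568-59566956 and Gsdmd at chr15:75862327-75867408, both on the plus strand. On the opposite strand, Il1a overlaps Gm14023, Il1b overlaps Il1bos, Il18 overlaps Bco2 and Tex12, and Il18bp overlaps Numa1. Whether strand was used in counting is not given in the sources used here. Whether reads of their partners entered the counts of these 4 genes was not checked.

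Promoters are shown for the 5 members on which the results turn: 3 cytokines that were highest in neutrophils, Casp4, whose difference between the groups of tumours was not the same in every cell class, and Il18, whose order over the classes was another one. Each sequence runs 5′ to 3′ on the gene's strand, from 250 bases before the start of transcription to 30 bases after it, and comes from RefSeq (GRCm38.p6). Capitals mark matches, on either strand, to TATAAA (the TATA box core), GGGNNNNNCC (a kappaB core), TTNNGNAA (a C/EBP core), TGANTCA (an AP-1 core) or GAGGAA (a PU.1 core).
Il1f9, chr2:24186226-24186505, plus strand: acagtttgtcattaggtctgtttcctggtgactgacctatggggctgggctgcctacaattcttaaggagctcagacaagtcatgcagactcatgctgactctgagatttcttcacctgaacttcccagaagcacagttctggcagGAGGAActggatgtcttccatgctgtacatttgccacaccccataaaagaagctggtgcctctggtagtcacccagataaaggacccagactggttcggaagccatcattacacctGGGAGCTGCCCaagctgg
Il1a, chr2:129309943-129310222, minus strand: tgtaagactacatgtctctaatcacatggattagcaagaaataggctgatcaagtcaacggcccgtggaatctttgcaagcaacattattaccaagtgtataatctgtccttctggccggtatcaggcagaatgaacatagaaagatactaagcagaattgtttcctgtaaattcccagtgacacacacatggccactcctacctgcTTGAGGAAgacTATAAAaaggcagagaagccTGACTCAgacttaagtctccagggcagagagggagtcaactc
Il1b, chr2:129371110-129371389, minus strand: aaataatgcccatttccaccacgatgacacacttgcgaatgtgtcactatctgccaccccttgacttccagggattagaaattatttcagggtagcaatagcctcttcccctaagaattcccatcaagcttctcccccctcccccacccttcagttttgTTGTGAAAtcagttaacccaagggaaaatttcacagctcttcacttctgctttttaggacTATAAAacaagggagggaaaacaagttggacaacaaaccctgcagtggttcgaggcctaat
Casp4, chr9:5308599-5308878, plus strand: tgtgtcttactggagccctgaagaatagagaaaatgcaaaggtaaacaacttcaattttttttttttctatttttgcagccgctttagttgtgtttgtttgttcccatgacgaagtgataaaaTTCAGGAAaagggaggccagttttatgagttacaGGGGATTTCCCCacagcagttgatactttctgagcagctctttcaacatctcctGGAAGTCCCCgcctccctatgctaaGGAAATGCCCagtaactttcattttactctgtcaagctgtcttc
Il18, chr9:50554450-50554729, plus strand: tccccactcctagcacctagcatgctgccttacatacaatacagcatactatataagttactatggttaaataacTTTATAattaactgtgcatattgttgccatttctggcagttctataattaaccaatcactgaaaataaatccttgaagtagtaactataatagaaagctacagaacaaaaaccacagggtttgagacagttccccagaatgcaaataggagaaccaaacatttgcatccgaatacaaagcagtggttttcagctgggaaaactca
TATAAA lay on the gene's strand 32 bases before the start in Il1a and 31 bases before it in Il1b. That position is a rare one: of 32851 mouse promoters in the RefSeq table, 576 (1.75%) had TATAAA starting between 35 and 25 bases before the start. In Il18 its reverse, TTTATA, began 175 bases before the start. With the strands counted apart, GGGNNNNNCC had 6 matches in Casp4, 4 of them within the single stretch in capitals that begins 93 bases before the start. In that stretch GGGATTTCCC, 92 bases before the start, matched on both strands and counts as 2. In Il1f9 GGGNNNNNCC matched at 2 overlapping places after the start. TTNNGNAA and GAGGAA overlapped in Il1a. Over the full 300-base windows, 13.6% of promoters held TATAAA, 50.8% GGGNNNNNCC, 40.7% TTNNGNAA, 28.3% GAGGAA and 7.81% TGANTCA. The AP-1 core began 12 bases before the start in Il1a, and among the windows not printed it had 1 match, in Il1rn. The table held 13 windows for 9 of the 10 members, with none for Gsdmd. These matches are descriptions of the letters and not of bound sites.

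The libraries held 11063 to 21854 cell barcodes, where the study's design text gives 10,000 encapsulated cells, and 84788907 to 111680641 unique molecular identifiers (UMIs, 1 per captured transcript). After filters, 9450 and 17791 cells were kept in the JAG2KO libraries, and 8742, 9502 and 7563 in the Scramble libraries. JAG2KO 2 stood apart with the most cells and the lowest median depth, 2450 UMIs per kept cell, against 8616 in JAG2KO 1 and 7672.5, 7780.5 and 7820 in Scramble 1 to 3. Pairs of libraries shared 26 to 74 barcodes. Jag2 in kept cells was at 3.61 and 2.33 CPM (UMIs of the gene per 1000000 UMIs of the summed cells) in JAG2KO and at 3.92, 3.10 and 4.53 CPM in Scramble. These values are no check of the labels, because the sort was for CD45+ cells and not for tumour cells.

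Cells were placed in classes by marker genes, none of them a member. Neutrophils numbered 205 and 299 cells in JAG2KO and 774, 937 and 815 in Scramble, and macrophages 5457 and 12419 in JAG2KO and 5532, 6121 and 4239 in Scramble. Monocytes numbered 275 to 608 and dendritic cells 153 to 362 per library. The gates used these markers, so their sums describe the gates and are no support for the names: the 9 neutrophil markers summed to 79490 to 108294 CPM in neutrophils and to 105 to 231 CPM in macrophages, while the 9 macrophage markers summed to 17839 to 24605 CPM in macrophages and 3037 to 4443 CPM in neutrophils. The labelled cell type, lung, is not what a CD45+ sort of flank tumours yields, and the classes are named here by their markers. Neutrophils were shallow cells, with median depths of 1105 to 1810 UMIs, against 2421 to 10825.5 UMIs in macrophages, 4149 to 6088.5 UMIs in monocytes and 5986 to 8753 UMIs in dendritic cells.

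By CPM, the 10 genes divided into those highest in neutrophils in every library and the rest. Il1f9, Il1b, Il1a, Il1rn, Nlrp3 and Casp4 were each highest in neutrophils in 5 of 5 libraries. The other 4 were not, and Il18 was highest in monocytes in 5 of 5 libraries. Per cell, Casp4 was at 0.191 to 0.318 UMIs per neutrophil and 0.313 to 0.470 per monocyte. For Il1rn the ranges overlapped, at 2.14 to 3.94 per neutrophil and 1.13 to 2.90 per macrophage. Il1f9 alone had most of its UMIs in neutrophils. Macrophages held 66.5% and 71.4% of Nlrp3 UMIs in JAG2KO and 63.9%, 63.0% and 55.7% in Scramble. Of Casp4 UMIs they held 70.6% and 67.7% in JAG2KO and 64.1%, 62.6% and 57.9% in Scramble. Class differences were the rule over all genes: of 10129 genes tested with libraries as blocks (edgeR's quasi-likelihood test, Benjamini-Hochberg adjustment), 74.7% passed an adjusted p of 0.05 between neutrophils and macrophages, 65.2% between monocytes and macrophages and 62.1% between dendritic cells and macrophages. In neutrophils against macrophages 9 members were higher and 0 lower, where 30.5% of genes were higher and 44.2% lower. In monocytes 7 were higher and 0 lower, where 31% were higher and 34.2% lower. In dendritic cells 3 were higher and 3 lower, where 29.7% were higher and 32.3% lower. Scaling mattered for neutrophils, and the reason was not tested. With scaling to total UMIs in place of TMM (edgeR's trimmed mean of M values), an alternative chosen after seeing the data, the median gene lay at -1.05 in place of -0.32 log2 in neutrophils against macrophages, the share of higher genes among those called was 21.4% in place of 40.9%, and the members' counts became 6 higher and 1 lower. For monocytes against macrophages that share was 31.8% in place of 47.6%, and for dendritic cells against macrophages 34.1% in place of 47.9%.

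**Figure D1:**
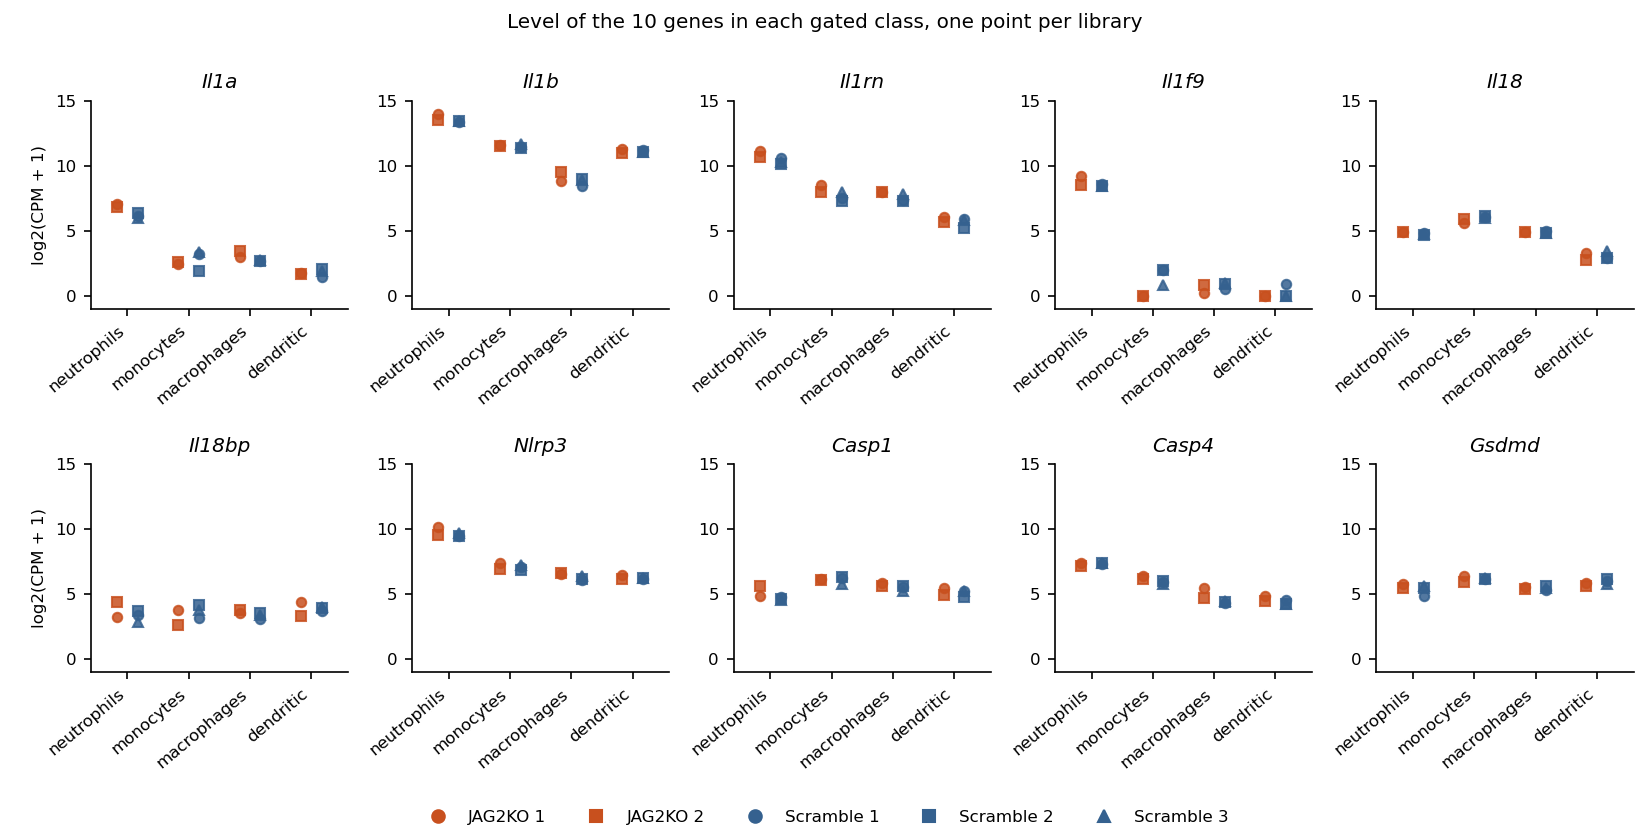
Levels of the 10 members by cell class, as log2(CPM + 1) of the UMIs summed over each class (y axis), with 1 point per library and JAG2KO to the left of Scramble in each class. Il1b reaches 10496 to 16428 CPM in neutrophils and 350 to 721 CPM in macrophages, while Il18 is highest in monocytes at 48.1 to 67.0 CPM.

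Among the cytokines, Il1b encodes IL-1 beta. It stood at 16428 and 11628 CPM in neutrophils of JAG2KO and at 10496, 11104 and 11082 CPM in neutrophils of Scramble. Monocytes had 3101 and 2887 CPM in JAG2KO and 2745, 2681 and 3303 CPM in Scramble, and dendritic cells 2480 and 1984 CPM in JAG2KO and 2377, 2131 and 2168 CPM in Scramble. Macrophages were lowest, at 442 and 721 CPM in JAG2KO and 350, 491 and 470 CPM in Scramble. The classes kept the same order, neutrophils over monocytes over dendritic cells over macrophages, within every library. Against macrophages the log2 difference was 5.32 ± 0.15 (SE) in neutrophils, 2.78 ± 0.14 in monocytes and 2.37 ± 0.14 in dendritic cells, each past the threshold, and monocytes exceeded dendritic cells by 0.42 ± 0.13 (adjusted p = 0.0087). Per cell the order was less plain, because a neutrophil holds fewer UMIs: the mean was 16.0 to 28.5 Il1b UMIs per neutrophil, 12.5 to 20.9 per monocyte, 13.2 to 20.4 per dendritic cell and 3.22 to 5.43 per macrophage. The first 3 of these ranges overlap, and the macrophage range lies below them all.

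Il1b was unevenly spread among the cells of a class. The top 10% of macrophages by Il1b UMIs held 71.0% and 66.7% of the class's Il1b UMIs in JAG2KO, and 76.5%, 69.5% and 68.5% in Scramble. In neutrophils the same share of cells held 28.9% and 30.4% of them in JAG2KO, and 35.2%, 35.7% and 35.8% in Scramble. Nearly every neutrophil thus carried the transcript and a minority of macrophages carried most of theirs. With each cell thinned to 1000 UMIs, 97.2% and 93.0% of JAG2KO neutrophils had an Il1b UMI, against 88.7%, 92.5% and 94.6% of Scramble neutrophils. The unthinned shares were 98% and 93.3% in JAG2KO, and 91.0%, 93.2% and 94.2% in Scramble. Lymphoid cells, which should lack Il1b, gave thinned shares of 6.35% and 2.86% in JAG2KO and 3.85%, 7.69% and 8.74% in Scramble at median depths of 3010 to 3947 UMIs, so the share in neutrophils lay far over this background. Macrophages had thinned shares of 21.1% and 38.7% in JAG2KO and 18.3%, 24.3% and 23.8% in Scramble, also over it. The groups overlapped in both classes, and each difference gave p = 0.4 in the exact two-sided permutation test (0.762 after Benjamini-Hochberg adjustment over 40 comparisons), where 2 against 3 libraries cannot go below 0.1.

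Along the axis from monocyte to macrophage, Il1b was lower where macrophage markers were higher. Monocytes, macrophages and ungated cells were pooled and binned by the share of their UMIs that came from the 9 macrophage markers. At 20 to 40 marker UMIs per 10000, Il1b stood at 2284 and 1845 CPM in JAG2KO and 2573, 2619 and 2699 CPM in Scramble. At 320 and over it stood at 127 and 156 CPM in JAG2KO and 74.8, 127 and 90.6 CPM in Scramble. In all libraries the level was lower in each bin from 40 upward than in the bin before. Il1rn had another shape, with its highest bin at 80 to 160 per 10000 in 5 of 5 libraries, at 315 and 301 CPM in JAG2KO and 200, 186 and 303 CPM in Scramble. Bins held 336 to 7582 cells, and the gate that separates the classes uses the same markers, so the plot describes a gradient and sets no boundary.

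**Figure D2:**
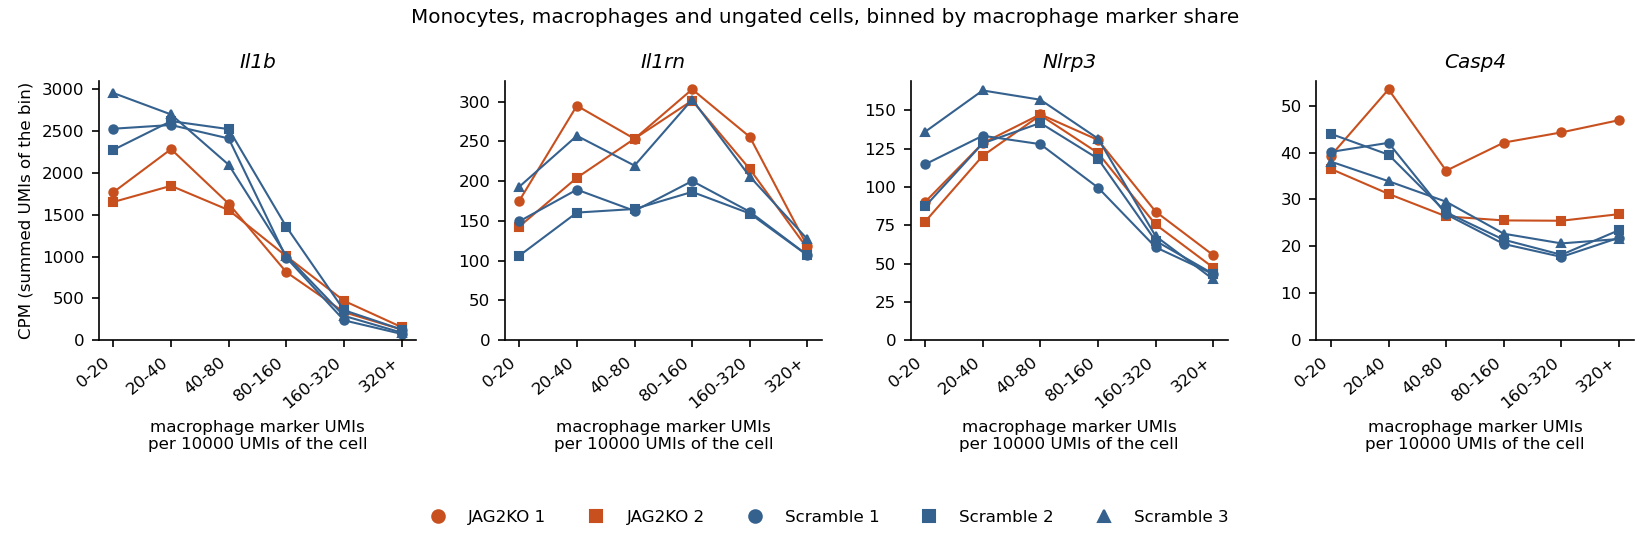
Il1b, Il1rn, Nlrp3 and Casp4 (CPM of summed UMIs, y axis) in monocytes, macrophages and ungated cells binned by macrophage marker UMIs per 10000 UMIs of the cell (x axis), with 1 line per library. Il1b is under 160 CPM in the highest bin of all 5 libraries, and Casp4 in that bin is at 46.9 and 26.9 CPM in JAG2KO and 21.8, 23.5 and 21.6 CPM in Scramble.

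Il1a encodes IL-1 alpha, which is active without caspase-1 cleavage. Its level was 132 and 114 CPM in JAG2KO neutrophils and 67.3, 80.7 and 63.0 CPM in Scramble neutrophils. Macrophages held 7.03 and 9.50 CPM in JAG2KO and 5.28, 5.28 and 5.49 CPM in Scramble. Neutrophils exceeded macrophages by 4.48 ± 0.18 log2. Monocytes did not differ from macrophages past the threshold (0.20 ± 0.24, adjusted p = 0.476, edgeR), and dendritic cells were lower than macrophages by a log2 value of -1.25 ± 0.36.

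Il1f9 encodes IL-36 gamma and lay mostly in neutrophils. It stood at 588 and 370 CPM in JAG2KO neutrophils and 382, 344 and 349 CPM in Scramble neutrophils. Macrophages had 0.161 and 0.722 CPM in JAG2KO and 0.429, 0.804 and 0.919 CPM in Scramble, and monocytes 0 UMIs in both JAG2KO libraries (3 UMIs would be 1.12 and 2.52 CPM) and 0.779 to 2.97 CPM in Scramble. Neutrophils held 86.0% and 74.9% of all Il1f9 UMIs in JAG2KO and 88.4%, 87.1% and 86.6% in Scramble. Thinned to 1000 UMIs, 30.7% and 30.1% of JAG2KO neutrophils and 24.8%, 21.3% and 23.9% of Scramble neutrophils had an Il1f9 UMI, and unthinned 38.0% and 30.1% in JAG2KO and 31.9%, 33.0% and 33.5% in Scramble. In lymphoid cells 1 of 1426 cells had one. The thinned shares separated the groups and the unthinned ones did not. The exact two-sided permutation test gave p = 0.1, the smallest value that 2 libraries against 3 can give, and p = 0.571 after Benjamini-Hochberg adjustment over the 40 shares compared.

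Il18 encodes IL-18, a cytokine that drives interferon gamma in lymphocytes. Monocytes had 48.1 and 59.6 CPM in JAG2KO and 65.0, 67.0 and 61.0 CPM in Scramble. Macrophages had 28.0 and 28.9 CPM in JAG2KO and 30.1, 27.9 and 27.5 CPM in Scramble, and neutrophils 28.1 and 29.2 CPM in JAG2KO and 27.4, 24.4 and 25.6 CPM in Scramble. Dendritic cells were lowest, at 8.71 and 5.64 CPM in JAG2KO and 6.50, 6.47 and 9.95 CPM in Scramble. Monocytes exceeded macrophages by 1.28 ± 0.08 log2 and dendritic cells by 2.94 ± 0.14. Neutrophils and macrophages could not be ordered, since the log2 difference was 0.59 ± 0.13 with TMM scaling and -0.14 with scaling to total UMIs.

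Of the inhibitors, Il1rn encodes the IL-1 receptor antagonist. Neutrophils had 2272 and 1654 CPM in JAG2KO and 1580, 1140 and 1232 CPM in Scramble. Monocytes had 364 and 253 CPM in JAG2KO and 180, 156 and 248 CPM in Scramble, and macrophages 254 and 253 CPM in JAG2KO and 160, 154 and 224 CPM in Scramble. Dendritic cells were lowest, at 66.4 and 48.7 CPM in JAG2KO and 58.5, 36.4 and 55.9 CPM in Scramble. Neutrophils exceeded macrophages by 3.61 ± 0.12 log2, and dendritic cells lay under macrophages at -1.80 ± 0.13. The gap between monocytes and macrophages, 0.37 ± 0.11 (adjusted p = 0.0059, edgeR), was 0.17 and missed the threshold with scaling to total UMIs. Macrophages, the most numerous class, held 74.4% and 77.7% of Il1rn UMIs in JAG2KO and 71.6%, 72.9% and 69.7% in Scramble. Il18bp, the secreted decoy that binds IL-18, was low in every class, at 5.03 to 20.1 CPM. Dendritic cells exceeded macrophages in it by 0.72 ± 0.20 log2, and the neutrophil difference of 0.75 ± 0.28 shrank to 0.02 with scaling to total UMIs.

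**Figure D3:**
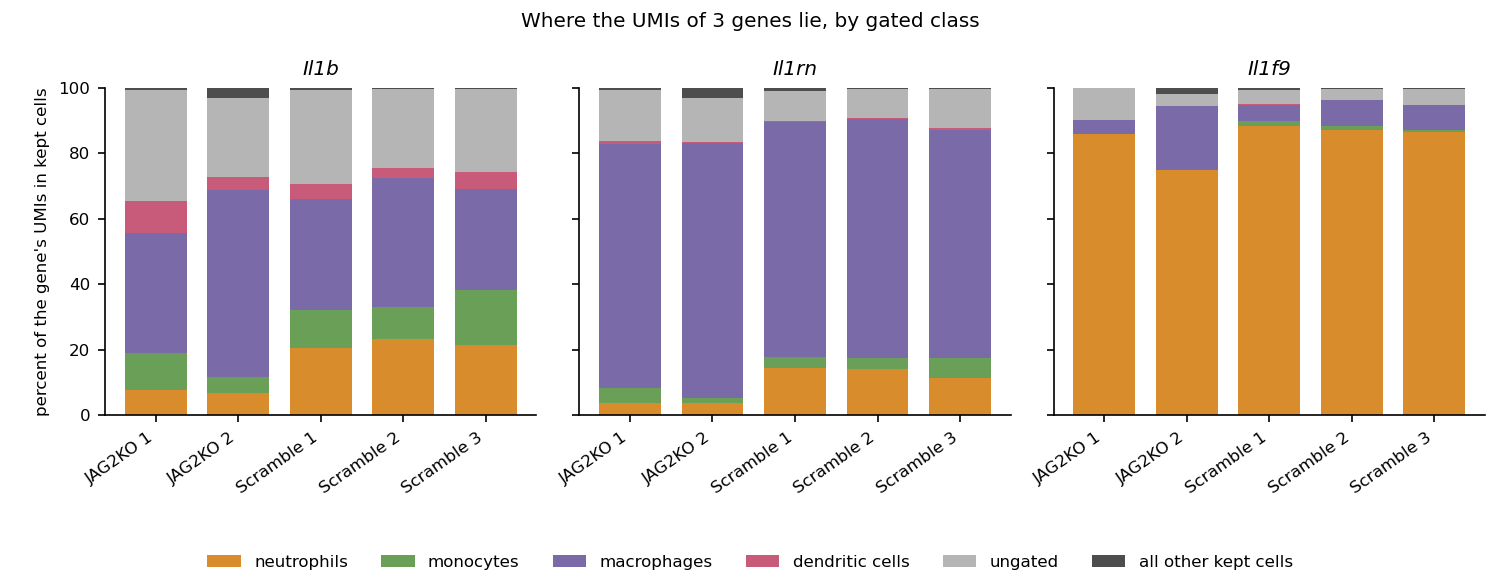
Percent of the UMIs of Il1b, Il1rn and Il1f9 in kept cells (y axis) that lie in each gated class, as 1 stacked bar per library with JAG2KO to the left. Neutrophils hold 7.80% and 6.82% of Il1b UMIs in JAG2KO and 20.6%, 23.3% and 21.4% in Scramble.

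Nlrp3 encodes the inflammasome sensor. It stood at 1165 and 743 CPM in JAG2KO neutrophils and 693, 714 and 845 CPM in Scramble neutrophils. Monocytes lay at 116 to 166 CPM, macrophages at 65.4 to 97.5 CPM and dendritic cells at 69.8 to 86.8 CPM. Neutrophils exceeded macrophages by 4.03 ± 0.10 log2 and monocytes exceeded them by 0.94 ± 0.09. Dendritic cells and macrophages did not differ past the threshold (0.06 ± 0.10).

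Among Casp1, Casp4 and Gsdmd, Casp4 was the one higher in neutrophils than in macrophages under both scalings. It stood at 163 and 139 CPM in JAG2KO neutrophils and 161, 169 and 167 CPM in Scramble neutrophils, a log2 difference to macrophages of 3.50 ± 0.14. Casp1, which encodes caspase-1, was highest in monocytes, at 71.2 and 68.8 CPM in JAG2KO and 73.4, 80.9 and 53.8 CPM in Scramble, and exceeded macrophages by 0.75 ± 0.10 log2. In neutrophils Casp1 differed from macrophages by -0.07 ± 0.16 log2 with TMM scaling and, past the threshold, by -0.80 with scaling to total UMIs. Gsdmd, which encodes gasdermin D, was at 58.7 to 82.8 CPM in monocytes and 38.4 to 47.8 CPM in macrophages, a log2 difference of 0.95 ± 0.09. Its neutrophil difference to macrophages was 0.66 ± 0.12 with TMM scaling and -0.07 with scaling to total UMIs. The neutrophils that led by CPM in Il1a, Il1b, Il1f9, Il1rn and Nlrp3 therefore did not lead in Casp1 or Gsdmd under both scalings.

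Within dendritic cells the members differed between subsets. Conventional type 2 cells (cDC2, marked by genes such as Cd209a) had the most Il1b, with a lowest, median and highest value over the 5 libraries of 4085, 4203 and 4900 CPM. Mature migratory cells (Ccr7, Fscn1) had 1234, 1613 and 1874 CPM and type 1 cells (cDC1, Xcr1, Clec9a) 311, 586 and 1149 CPM. The 3 ranges did not overlap. Nlrp3 was likewise highest in cDC2, at 103, 148 and 168 CPM, against 25.9, 30.6 and 98.3 CPM in mature cells and 17.4, 28.6 and 41.0 CPM in cDC1. The inhibitors were highest in mature cells: Il1rn was at 86.8, 94.1 and 138 CPM in mature cells, 29.2, 42.6 and 72.1 CPM in cDC2 and 2.78, 4.35 and 13.3 CPM in cDC1, and Il18bp at 18.6, 39.7 and 55.3 CPM in mature cells and 2.43, 7.72 and 11.6 CPM in cDC2. Il18bp had no more than 3 UMIs in the cDC1 of any library. Subsets held 36 to 162 cells, and no test between them was run. Mature cells were 44.8% and 56.3% of gated dendritic cells in JAG2KO and 34.2%, 26.8% and 31.6% in Scramble, so class sums weight the subsets differently in the groups.

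**Figure D4:**
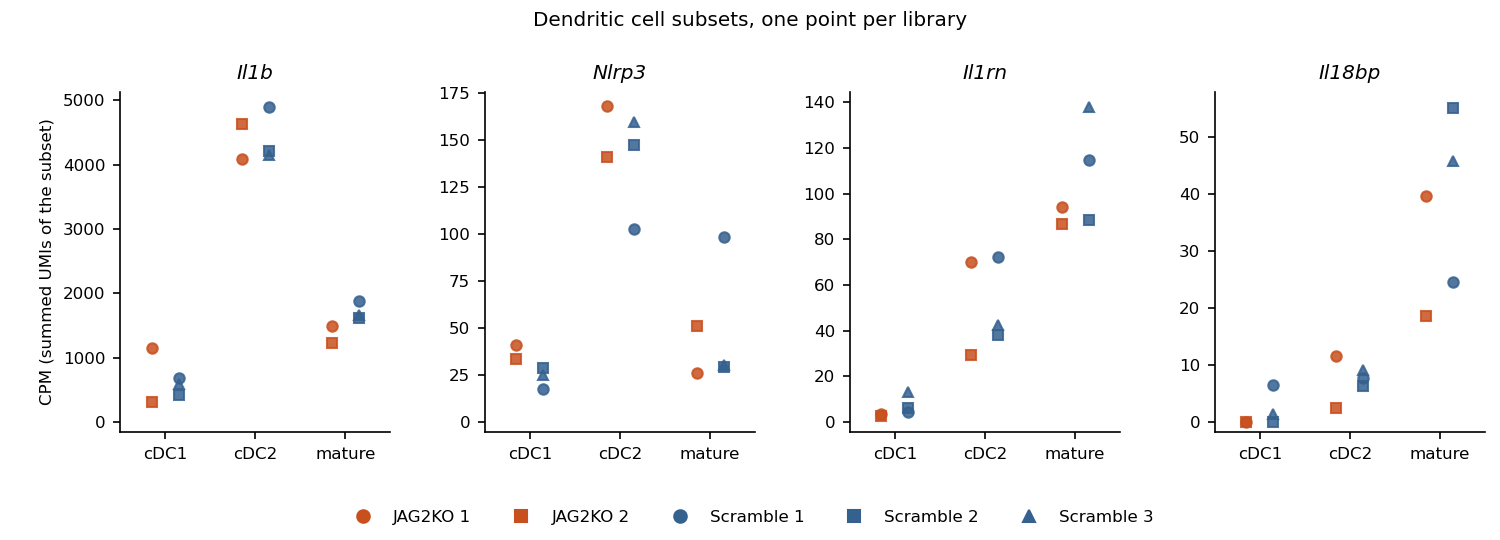
Il1b, Nlrp3, Il1rn and Il18bp (CPM of summed UMIs, y axis) in 3 dendritic cell subsets, with 1 point per library and JAG2KO to the left of Scramble in each subset. Il1b is at 4085 CPM or more in cDC2 of every library and at 1149 CPM or less in cDC1.

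Genes with the most similar pattern over the 20 sums (4 classes in 5 libraries), by Pearson correlation of log2(CPM + 1) among genes averaging at least 10 CPM, were Pim1 (0.986), Pglyrp1 (0.979) and Stk17b (0.975), with Gfod1 and Mcemp1 next, for Il1b. For Il1rn they were Ets2 (0.988), Mapkapk2 (0.982), Tnfrsf1b, Selenon and Ehd1. For Il18 they included Adssl1 (0.972), Lgals8 (0.959), Vegfa and Zeb2. The sums share libraries and class totals, and the values are descriptions.

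The study's own comparison, JAG2KO against Scramble, asks how loss of Jagged2 in the tumour cells changes the leukocytes around them. In the sum over all kept cells 1 member of 10 changed: Il1f9 was lower in JAG2KO. Its level was 2.61 and 2.60 CPM in JAG2KO and 6.96, 8.04 and 8.37 CPM in Scramble. Both JAG2KO libraries lay below all 3 Scramble libraries. The log2 fold change was -1.62 ± 0.13 (SE), with an adjusted p of 0.0016 (edgeR), where 6.55% of 15079 genes tested were called. Without JAG2KO 2 it was -1.66. In such sums, fewer cells of a class and less RNA per cell cannot be told apart: within neutrophils, which held most of the Il1f9 UMIs, neither JAG2KO library lay below the Scramble range (588 and 370 CPM in JAG2KO, 382, 344 and 349 CPM in Scramble), and neutrophils were 2.17% and 1.68% of kept cells in JAG2KO and 8.85%, 9.86% and 10.8% in Scramble. The other 9 members did not pass. At an unadjusted p under 0.05 there were 2, Il1f9 and Casp4, where 20.8% of genes met it. Both JAG2KO libraries lay above all of Scramble for Il1rn and Casp4, as for 23.1% of genes, and below for Il1f9 and Il18, as for 13.4%. Il1b over all kept cells was at 804 and 895 CPM in JAG2KO and 820, 970 and 1077 CPM in Scramble (log2 -0.21 ± 0.14, adjusted p = 0.487, edgeR), with overlapping groups. Its sources differed in size: 7.80% and 6.82% of its UMIs in JAG2KO came from neutrophils, against 20.6%, 23.3% and 21.4% of those in Scramble, and macrophages gave 36.7% and 57.1% in JAG2KO and 33.8%, 39.3% and 30.8% in Scramble. Casp4 over all kept cells was at 41.5 and 26.5 CPM in JAG2KO and 23.3, 24.1 and 25.6 CPM in Scramble. It did not pass with all libraries (0.44 ± 0.15, adjusted p = 0.165, edgeR) and passed without JAG2KO 2 (0.69, adjusted p = 0.0171).

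Within neutrophils none of the 10 members passed an adjusted p of 0.05 by edgeR, where 0.432% of 7169 genes did. DESeq2 gave 6 of them an adjusted p and called none, where 2.48% of 1615 genes were called. At an unadjusted p under 0.05 there were 2, Il1a and Il1rn, where 11.4% of genes met that mark. Il1a had 132 and 114 CPM in JAG2KO against 67.3, 80.7 and 63.0 CPM in Scramble (log2 0.78 ± 0.21, adjusted p = 0.153). Il1rn had 2272 and 1654 CPM in JAG2KO against 1580, 1140 and 1232 CPM in Scramble (0.55 ± 0.21, adjusted p = 0.340). In both genes the JAG2KO libraries lay above all Scramble libraries, as they did for Il1b, Casp1 and Il18, and 17.1% of all genes had that order. The JAG2KO libraries held only 10 and 20 UMIs of Casp1 and 10 and 12 of Il18 in this class. Il1b differed by 0.34 ± 0.23 log2 (adjusted p = 0.596), with JAG2KO 1 far above the other 4 libraries. Casp4 lay at -0.16 ± 0.18. Of the 10 fold changes 9 were positive, with a median of 0.37 log2, against 50.2% positive and a median of 0.0018 over all genes tested. Among the positive ones, Gsdmd (19 and 18 UMIs in JAG2KO) and Il18bp (3 and 8 UMIs) rested on few counts, as did Casp1 and Il18. JAG2KO neutrophils numbered 205 and 299, and their lymphoid markers summed to 78.8 and 77.9 CPM, against 27.4, 40.3 and 22.1 CPM in Scramble neutrophils. That list has 11 genes, among them Cd79a, Cd79b and Ms4a1, each at 0 in some libraries. Its part in these values was not tested.

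**Figure D5:**
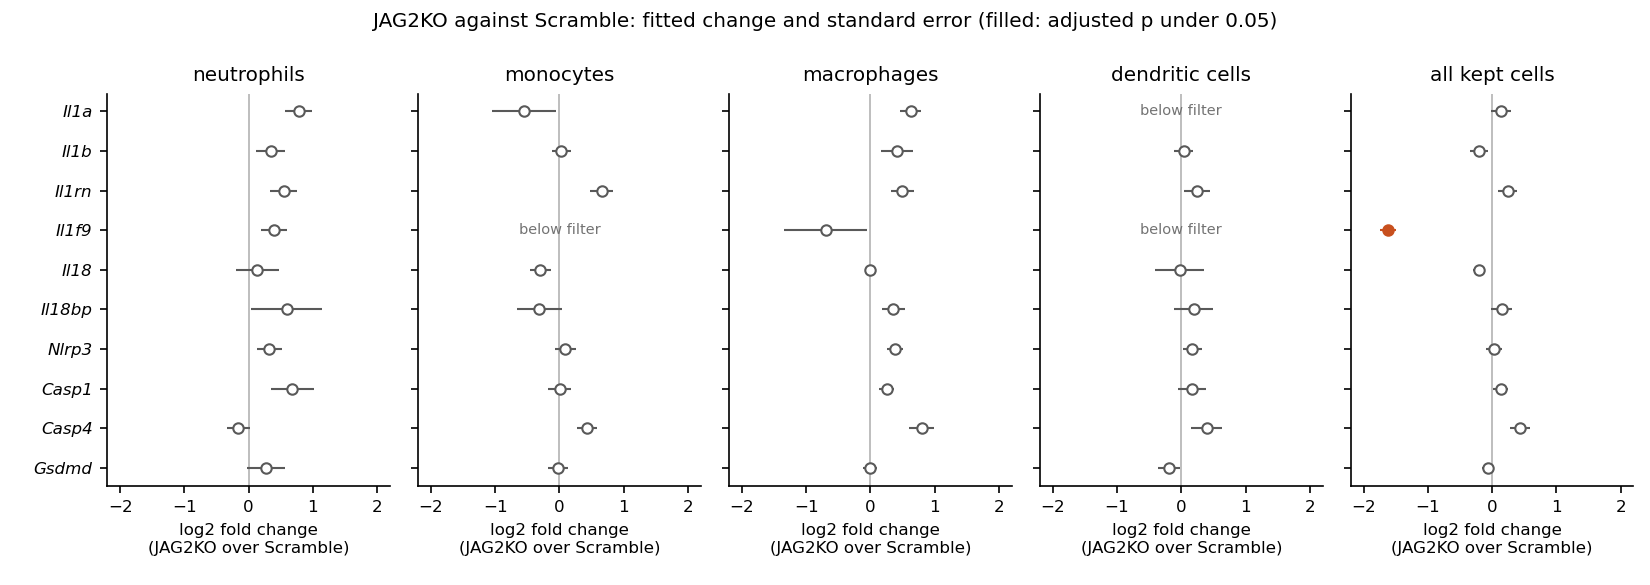
Log2 fold change of each member, JAG2KO over Scramble (x axis, bars are 1 SE), in 4 cell classes and in all kept cells; a filled point has an adjusted p under 0.05 by edgeR. Il1f9 in all kept cells, at -1.62, is the single filled point, and members that did not pass the filter on low counts have no point.

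Monocytes showed no member past the threshold by edgeR (0.505% of 9315 genes were called), among the 9 members that passed the filter on low counts. DESeq2 called none of the 8 to which it gave an adjusted p (0.485% of 8042 genes were called). At an unadjusted p under 0.05 there were 2, where 7.36% of genes met it. Il1rn was at 364 and 253 CPM in JAG2KO and 180, 156 and 248 CPM in Scramble, with both JAG2KO libraries above all of Scramble (log2 0.66 ± 0.18, adjusted p = 0.152). It passed without JAG2KO 2 (0.85, adjusted p = 0.0279) and without Scramble 3 (0.86, adjusted p = 0.0145). Casp4 was at 84.3 and 72.2 CPM in JAG2KO and 58.5, 63.1 and 53.3 CPM in Scramble (0.42 ± 0.15, adjusted p = 0.435). Of all genes, 12% had both JAG2KO libraries above Scramble. Il18 was the member with both JAG2KO libraries below, at 48.1 and 59.6 CPM against 65.0, 67.0 and 61.0 CPM in Scramble (-0.30 ± 0.17, adjusted p = 0.769), an order that 10.7% of genes had. The 8 monocyte fold changes other than that of Il1rn ran from -0.56 to 0.42. Neutrophil markers in these monocytes summed to 282 and 295 CPM in JAG2KO and 504, 584 and 480 CPM in Scramble, and their part in the result was not tested.

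In macrophages 0 of the 10 members passed by edgeR, where 0.957% of 14106 genes did. By DESeq2, which called 7.08% of 15080 genes, 2 passed, Casp4 (adjusted p = 0.0049) and Il1a (adjusted p = 0.0353). At an unadjusted p under 0.05 by edgeR there were 4, Il1a, Il1rn, Nlrp3 and Casp4, where 18% of genes met it. Casp4 was at 43.9 and 25.4 CPM in JAG2KO and 18.8, 19.4 and 21.0 CPM in Scramble. JAG2KO 1 was far above the other 4 libraries and JAG2KO 2 just above Scramble. The log2 fold change was 0.80 ± 0.20 (adjusted p = 0.102), 1.11 without JAG2KO 2 (adjusted p = 0.0255) and 0.39 without JAG2KO 1 (adjusted p = 0.134). Il1a had 7.03 and 9.50 CPM in JAG2KO against 5.28, 5.28 and 5.49 CPM in Scramble (0.63 ± 0.16, adjusted p = 0.114), and passed without JAG2KO 1 (0.86, adjusted p = 0.0413). Il1rn had 254 and 253 CPM in JAG2KO against 160, 154 and 224 CPM in Scramble (0.50 ± 0.18, adjusted p = 0.205), and passed without Scramble 3 (0.70, adjusted p = 0.0415). Nlrp3 had 94.0 and 97.5 CPM in JAG2KO against 65.4, 70.8 and 83.3 CPM in Scramble (0.38 ± 0.12, adjusted p = 0.173). Casp1 was the fifth member with both JAG2KO libraries above, at 56.5 and 49.3 CPM against 47.0, 47.8 and 37.8 CPM in Scramble, and 17.1% of all genes had that order. The median fold change of the 10 was 0.37 log2, against -0.0013 over all genes. Il1b depended on JAG2KO 2: its fold change was 0.42 ± 0.25 with all libraries and -0.023 without that one. In JAG2KO 2 macrophages the monocyte markers summed to 772 CPM, against 542 CPM in JAG2KO 1 and 451, 529 and 562 CPM in Scramble, and lymphoid markers to 56.2 CPM, against 25 CPM in JAG2KO 1 and 10.4, 17.5 and 12.0 CPM in Scramble. Their part in the result was not tested.

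Casp4 was also followed along the bins of macrophage marker share. In cells with 160 to 320 marker UMIs per 10000, Casp4 was at 44.3 and 25.5 CPM in JAG2KO and 17.8, 18.2 and 20.6 CPM in Scramble. In cells under 20, the least macrophage-like, it was at 39.3 and 36.5 CPM in JAG2KO and 40.1, 44.0 and 38.1 CPM in Scramble. The groups stood apart in the first of these bins, with JAG2KO higher, and JAG2KO did not exceed all Scramble libraries in the second. JAG2KO was also higher at 80 to 160 and at 320 and over. The groups overlapped at 20 to 40 and at 40 to 80 (36.1 and 26.4 CPM in JAG2KO, 26.8, 27.2 and 29.5 CPM in Scramble). The gated macrophages all lie in the bins from 80 upward, so those bins hold the cells already tested as a class. Among macrophages 17.1% of genes had both JAG2KO libraries above Scramble, and such shares were not counted per bin. The share of macrophages with a Casp4 UMI after thinning was 3.93% and 2.61% in JAG2KO and 2.02%, 2.12% and 2.14% in Scramble. Lymphoid cells gave 3.63% and 3.27% in JAG2KO and 3.08%, 3.85% and 4.85% in Scramble. Their Casp4 stood at 23.7 to 44.8 CPM, so they give no background for this gene. The macrophage share was therefore not read.

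Dendritic cells showed no member past the threshold by edgeR, where 1.57% of 8716 genes were called, and none at an unadjusted p under 0.05 (12.5% of genes met that). DESeq2 called none of the 4 to which it gave an adjusted p (2.7% of 2997 genes were called). The 8 members that passed the filter had overlapping groups, where 27% of genes had JAG2KO all above or all below Scramble. Il1b in this class was at 2480 and 1984 CPM in JAG2KO and 2377, 2131 and 2168 CPM in Scramble, a log2 fold change of 0.04 ± 0.15. Casp4 had the largest, 0.40 ± 0.24 (adjusted p = 0.567).

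Whether an effect differed between classes was tested directly. Of the 10 members, Casp4 alone differed, between neutrophils and macrophages: the log2 fold change, JAG2KO over Scramble, was lower in neutrophils, with a difference of -1.02 ± 0.19 (adjusted p = 0.0078, edgeR), where 1.52% of 10129 genes were called. Both JAG2KO libraries were above Scramble in macrophages (43.9 and 25.4 CPM against 18.8, 19.4 and 21.0 CPM), and they did not stand apart in neutrophils (163 and 139 CPM against 161, 169 and 167 CPM). The call was lost without JAG2KO 1 (-0.81, adjusted p = 0.0734), without Scramble 2 (-0.99, adjusted p = 0.062) and with doublets kept (-0.84, adjusted p = 0.0518). Without JAG2KO 2 it was -1.27 (adjusted p = 0.0035). Between monocytes and macrophages 0 members passed by edgeR (0.346% of genes did), with Il1a and Casp4 at an unadjusted p under 0.05. Between dendritic cells and macrophages 0 passed (1.61% of genes did) and 0 met the unadjusted mark. DESeq2 was not run for these terms. Without JAG2KO 1, the Il1b effect was lower in neutrophils (-0.82, adjusted p = 0.0438) and in dendritic cells (-0.84, adjusted p = 0.0333) than in macrophages, and without JAG2KO 2 the Il1f9 effect was higher in neutrophils than in macrophages (2.70). These calls were not made with all libraries.

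The balance of antagonist to cytokine was compared as the log2 ratio of UMIs per library. In monocytes the Il1rn to Il1b ratio was -3.09 and -3.51 in JAG2KO and -3.93, -4.10 and -3.74 in Scramble, with both JAG2KO libraries above Scramble. The means differed by 0.62, and the exact two-sided permutation test gave p = 0.1, its smallest value here, and p = 0.8 after Benjamini-Hochberg adjustment over 8 ratios. In neutrophils that ratio was -2.85 and -2.81 in JAG2KO and -2.73, -3.28 and -3.17 in Scramble, in macrophages -0.80 and -1.51 in JAG2KO and -1.13, -1.67 and -1.07 in Scramble, and in dendritic cells -5.22 and -5.35 in JAG2KO and -5.35, -5.87 and -5.28 in Scramble. The groups overlapped in these 3 classes. The Il18bp to Il18 ratio in macrophages was -1.35 and -1.20 in JAG2KO and -2.04, -1.35 and -1.56 in Scramble, a difference of means of 0.38 (exact permutation p = 0.3). Across classes the Il1rn to Il1b ratio was highest in macrophages and lowest in dendritic cells within every library, and as a ratio of 2 genes it does not depend on the scaling.

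The other genes of the pathway were followed as a list of 43, covering receptors, adaptors, sensors and the NF-kappaB module. In neutrophils, monocytes and macrophages none of the 29, 31 and 39 list genes that passed the filter on low counts was called by edgeR. At an unadjusted p under 0.05 there were 2, 4 and 10 in those classes, where 11.4%, 7.36% and 18% of all genes met it. DESeq2 made no call on the list in neutrophils and monocytes. In macrophages it called 5 higher and 2 lower, where it called 3.65% of all genes higher and 3.43% lower. In all kept cells 2 of 40 were higher and 4 lower, where 3.43% of all genes were called higher and 3.12% lower. Il18r1, the ligand-binding chain of the IL-18 receptor, was at 7.32 and 6.76 CPM in JAG2KO and 2.07, 2.47 and 3.19 CPM in Scramble (1.41 ± 0.18, adjusted p = 0.0073). It was at 14.1 CPM or less in the 4 myeloid classes and higher in lymphoid cells, where it stood at 194 and 129 CPM in JAG2KO and 120, 150 and 224 CPM in Scramble, overlapping, and those cells numbered 571 and 513 in JAG2KO and 132, 104 and 106 in Scramble. Tnfaip3, which encodes the NF-kappaB brake A20, was at 128 and 103 CPM in JAG2KO and 58.1, 62.0 and 78.3 CPM in Scramble (0.76 ± 0.14, adjusted p = 0.0248), and in macrophages at 115 and 90.5 CPM in JAG2KO and 46.5, 51.7 and 64.2 CPM in Scramble (adjusted p = 0.0554). The receptor accessory chain Il1rap (-0.51 ± 0.09, adjusted p = 0.0191) and the sensor Nlrp12 (-1.89 ± 0.34, adjusted p = 0.0225) were lower in JAG2KO. Il1r2, the decoy receptor for IL-1, was lower at 29.8 and 32.6 CPM in JAG2KO and 47.1, 52.0 and 71.4 CPM in Scramble (-0.90 ± 0.18, adjusted p = 0.0316), and so was Il33 (-1.06), a further family member. Il1r2 and Il33 were named after their values were seen. The median level of Il33 over the libraries was 6.48 CPM in all kept cells and 1.16 CPM in macrophages. Its highest value in any library was 3.72 CPM in macrophages, 2.44 CPM in neutrophils, 1.41 CPM in dendritic cells and 0.779 CPM in monocytes. In lymphoid cells it was 2.16 CPM or less. The Il33 difference is therefore not read as a change within these classes, and which other kept cells held its UMIs was not tested. In neutrophils alone Il1r2 was at 1590 and 1274 CPM in JAG2KO and 1553, 1429 and 1763 CPM in Scramble, and Il1rap and Nlrp12 had overlapping groups there too. With at most 5% mitochondrial UMIs the count of lower genes was 1 in place of 4, and Il1r2 (adjusted p = 0.0734), Nlrp12 (0.0607) and Il33 (0.0643) lost their calls. Il18r1 passed with each library left out. The other calls were each lost without at least 1 library: Tnfaip3 without JAG2KO 1 (adjusted p = 0.0888), Scramble 1 (0.0728) or Scramble 2 (0.106), Il1rap without JAG2KO 1 (0.0659), JAG2KO 2 (0.0589) or Scramble 2 (0.077), Nlrp12 without JAG2KO 1 (0.0762), Scramble 2 (0.0833) or Scramble 3 (0.057), Il1r2 without JAG2KO 1 (0.113), JAG2KO 2 (0.0738) or Scramble 2 (0.0779), and Il33 without JAG2KO 2 (0.112), Scramble 1 (0.0567), Scramble 2 (0.083) or Scramble 3 (0.0592).

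In dendritic cells 1 of 30 list genes was called, in the higher direction that 0.964% of all genes had. It was Serpinb1a, which encodes an inhibitor of neutrophil serine proteases and of caspase-1. It was at 75.4 and 78.3 CPM in JAG2KO and 60.1, 25.9 and 26.0 CPM in Scramble (1.10 ± 0.26, adjusted p = 0.0396, edgeR). Scramble 1 lay nearer to JAG2KO than to the other Scramble libraries. The call was lost with DESeq2 (adjusted p = 0.0584), with the stricter marker gate (0.0613), without JAG2KO 1 (0.0699), without JAG2KO 2 (0.114), without Scramble 2 (0.171) and without Scramble 3 (0.132).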

How the data were processed

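The authors deposited filtered UMI count matrices per library, made with cellranger 6.0.0 per the file headers. The 3′ v2 kit stands in the labels' protocols, and Seurat and GRCm38 (mm10) stand in the submitters' processing notes with no role. The aligner's settings are not given in the sources used here. Members, lists and tests were chosen with earlier results of these data known.

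From the counts, cells were required to have 500 UMIs, 250 genes and no more than 10% mitochondrial UMIs, and the top 8% by Scrublet score (scanpy 1.11.5) were removed as doublets per library. Gates used the share of a cell's UMIs in each marker list, at 3 or more marker genes: at least 100 per 10000 for neutrophils, 20 for monocytes, 80 for macrophages and 10 for dendritic cells. Monocytes and dendritic cells needed under 40 of macrophage markers, and macrophages under 40 of monocyte markers. Monocytes also lay under the neutrophil and dendritic cell thresholds. Neutrophils needed a higher share of neutrophil than of macrophage markers, and macrophages no lower a macrophage share. Cells with 3 or more genes and at least 10 per 10000 of lymphoid, mast cell, plasmacytoid or non-leukocyte markers were kept out of these classes, as were cells in more than 1 gate. Within 25% above their threshold lay 1666 of 12419 JAG2KO 2 macrophages and 394 of 5457 JAG2KO 1 macrophages, against 327 of 5532, 367 of 6121 and 316 of 4239 in Scramble 1 to 3. UMIs were summed per library and class and tested with edgeR 4.0.16 (TMM, filterByExpr, quasi-likelihood test, Benjamini-Hochberg over all genes, threshold 0.05) in R 4.3.3. DESeq2 1.42.0, no filter, stricter cells, mitochondrial and marker gates, doublets kept, thinned sums, the replicate number as a block, scaling to total UMIs and each library left out were alternatives. Shares and ratios were tested by exact permutation over libraries. The scripts were tested on simulated data.

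Named genes were the 10 members, up to 4 called genes of the pathway list per class with the smallest adjusted p, and the 5 genes most like Il1b, Il1rn and Il18, of which 1 is not reported here. Same-numbered libraries are not said to be paired. Total UMIs bound the precision of low values, and no counting intervals are given.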

Additional observations from a re-analysis of the deposited data

Results flagged for a closer look

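The effect of JAG2KO on Casp4 differed between 2 cell classes by a direct test. The log2 fold change, JAG2KO over Scramble, was 0.80 ± 0.20 in macrophages and -0.16 ± 0.18 in neutrophils, and the difference, neutrophils minus macrophages, was -1.02 ± 0.19 (adjusted p = 0.0078, edgeR). The call was lost without JAG2KO 1 (adjusted p = 0.0734), without Scramble 2 (0.062) and with doublets kept (0.0518). JAG2KO 1 carried most of the macrophage value, with 43.9 CPM against 25.4 CPM in JAG2KO 2 and 18.8 to 21.0 CPM in Scramble. Macrophages had a median depth of 10580 UMIs in JAG2KO 1, 2421 UMIs in JAG2KO 2 and 10477 to 10825.5 UMIs in Scramble, and the part of depth in the result was not tested.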

How the results depend on the processing

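Counts of called members moved little. With 0 called in neutrophils and in dendritic cells, no alternative added any, though DESeq2 gave an adjusted p to only 6 and 4 members there. In monocytes the count was 0, and 1 (Il1rn) without the filter on low counts or with the replicate block, and 0 to 1 with a library left out. In macrophages it was 0, and 2 with DESeq2, 1 (Casp4) without the filter, 3 with the replicate block (Il1rn 0.70, Casp4 0.81, Nlrp3 0.50 log2), and 0 to 1 with a library left out. In all kept cells it was 1, and 1 to 2 with a library left out, with Il1f9 called under every alternative run at -1.56 to -1.73. For differences between classes it was 1, and 0 with doublets kept, 2 without the filter, and 0 to 2 with a library left out. Same-numbered libraries share only a number: there are 2 such pairs, and their deviations from the group means correlated at -0.0004 to 0.231. Counts over all genes moved more. With the block, 130 genes were called in neutrophils (31 without), 172 in monocytes (47), 888 in macrophages (135) and 220 in dendritic cells (137). Without the filter they were 137, 158, 878 and 317, with the stricter marker gate 18 in monocytes and 469 in macrophages, and with DESeq2 1067 in macrophages, 81 in dendritic cells and 1597 in all kept cells (987 by edgeR, 1618 without the filter). With a library left out they ran from 7 to 53 in neutrophils, 29 to 76 in monocytes, 0 to 351 in macrophages, 28 to 133 in dendritic cells and 298 to 893 in all kept cells. Differences of the effect between classes, summed over the 3 contrasts with macrophages, gave 955 gene calls without the filter, 232 with doublets kept and 108 to 477 with a library left out, against 352. Neutrophils gave 17 with stricter cells or doublets kept, and monocytes 27 with thinned sums. The cause was not tested.

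Several directions rested on few UMIs or on 1 library. The log2 fold change of Il1b in macrophages ran from -0.023 (without JAG2KO 2) to 0.76 (without JAG2KO 1). With the stricter gate the Il18bp to Il18 difference was -0.36 in neutrophils and -0.34 in dendritic cells, and the Il1rn to Il1b difference -0.22 in macrophages and -0.86 in dendritic cells. With a library left out, the Il18bp to Il18 difference ran from -0.20 to 0.95 in neutrophils, -1.13 to 0.55 in monocytes and -0.20 to 0.30 in dendritic cells, and the Il1rn to Il1b difference from -0.22 to 0.49 in macrophages. The share of cells with an Il1b UMI, JAG2KO minus Scramble, ran from -3.09 to 2.72 percentage points in monocytes, -1.05 to 16.6 in macrophages (-1.95 unthinned) and -13.4 to 4.06 in dendritic cells. Of 433 alternative values, 360 were labelled unchanged. For counts of called members this label meant an equal or close count, and for fold changes the same direction and side of the threshold. Low depth limits Il1f9 and Il1a in monocytes and dendritic cells, and Il18bp in neutrophils, where the 5 libraries held 3 to 21 UMIs of it.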

Other observations

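Cells that passed no marker gate also held much Il1b, at 1609 and 1482 CPM in JAG2KO and 2389, 2427 and 2168 CPM in Scramble, and so did the least macrophage-like cells of the pooled monocytes, macrophages and ungated cells. In cells with under 20 macrophage marker UMIs per 10000, Il1b was at 1769 and 1653 CPM in JAG2KO and 2528, 2276 and 2955 CPM in Scramble, and in cells with 160 to 320 it was at 335 and 471 CPM in JAG2KO and 238, 359 and 291 CPM in Scramble. The JAG2KO libraries were thus below all Scramble libraries in the first of these bins, and not in the second. These comparisons were chosen after the values were seen and carry no test. The share of all genes with such an order in these bins was not counted. Gated monocytes did not have that order: their groups overlapped, with Il1b means of 2994 CPM in JAG2KO and 2910 CPM in Scramble. Ungated cells held 33.9% and 24.1% of the Il1b UMIs in JAG2KO and 28.9%, 24.1% and 25.4% in Scramble.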
